A study of Rattus norvegicus with 16 samples.

Results

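The collagen genes on the array were described across the neuromuscular junctions and the fibres of a pair of rat muscles. A gene was counted as a collagen when its symbol had the form Col, digits, a, digits. This rule found 41 genes, measured by 58 probe sets, among the 14217 genes that had a probe set naming 1 gene only. Of these 41 genes, 14 had more than 1 probe set, and the brightest on average over the 16 arrays stood for the gene. Measured values played no other part in choosing them.

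Collagens are the triple-helical proteins of the extracellular matrix. Fibrillar collagens form the fibrils of the endomysium, perimysium and tendon, network collagens such as type IV form the basement membrane that sheathes every muscle fibre, FACIT collagens (fibril-associated collagens with interrupted triple helices) sit on fibrils or at basement membranes, and membrane collagens span the plasma membrane of the cell that makes them. In muscle most fibrillar collagen is made by fibroblasts, while the fibre itself makes some membrane and FACIT collagens. At the junction between motor axon and fibre the basement membrane of the synaptic cleft has its own makeup of collagen and laminin chains.

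The tissue came from 4 rats whose strain, age and treatment the labels do not give. Rectus extraocular muscle (EOM) and tibialis anterior (TA, a limb muscle) of each rat were frozen and cut at 10 μm. Junctions were made visible by their acetylcholinesterase, and about 1000 junction regions and as much muscle away from junctions were laser-captured from each muscle. The RNA went through a pair of amplification cycles before hybridisation to Affymetrix arrays. This gave 4 groups of 4 arrays: EOM fibre, EOM junction, TA fibre and TA junction, each with 1 array from the rats numbered 15, 25, 27 and 29 in the titles. Captured regions hold every cell type present there, so a change in a collagen cannot be told apart from a change in the share of cells that make it.

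Levels are given as log2(intensity + 16) after quantile normalization, so that 4.0 is the lowest possible value and 5.88 is the median of all probe sets. Values on single arrays are listed in the order rat 15, 25, 27 and 29. Differences are on the same log2 scale, which understates changes of dim probe sets, and a level of 1 probe set is not compared with that of another. Tests were made in limma on all 10416 genes above the array median on at least 4 arrays, with the rat as a block. A call is an adjusted p under 0.05 (Benjamini-Hochberg over all genes tested). The p-values rest on the spread among these 4 rats that is left after level differences between the rats are taken out. Of the 41 collagen genes, 34 passed this filter and 7 did not (Col4a4, Col4a6, Col6a5, Col9a1, Col10a1, Col17a1 and Col23a1). A gene could pass through the group in which it was high, so counts among the 34 are descriptions of the genes that passed.

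Median deposited intensities ran from 33.4 to 57.0 over the 16 arrays at an equal trimmed mean. The arrays with the highest medians, EOM fibre 15, TA fibre 25 and TA junction 27, correlated least with their own groups (mean r 0.878, 0.885 and 0.891, against 0.899 to 0.947 for the others). Counts are therefore given with and without these 3 arrays, an alternative chosen after seeing the data. Muscle fibre markers were bright in all groups, with a summed intensity over the 7 genes of 109213 to 162633. All 6 tested markers of subsynaptic nuclei rose at the junction in both muscles. The seventh, Musk, was below the filter. Chrna1, Chrnd and Chrnb1 were also called higher in EOM fibre than in TA fibre (by 3.52, 1.81 and 0.85), and the others tested were not. Fibroblast markers other than collagens (9 of 12 tested, with Fbln1, Thy1 and Tcf21 below the filter) summed to 7779 to 17564 in EOM fibre, 17730 to 27083 in EOM junction, 2464 to 4061 in TA fibre and 7008 to 11139 in TA junction. Schwann cell markers (7 tested, with Erbb3 below the filter) summed to 1668 to 2556 in EOM fibre, 7193 to 13789 in EOM junction, 385 to 703 in TA fibre and 3126 to 5198 in TA junction. These sums, in which the brightest genes weigh most, did not overlap between junction and fibre of the same muscle. Gene by gene the fibroblast markers did not all follow their sum: at the EOM junction Dcn, Lum and Pdgfra were higher than in EOM fibre, Pi16 was lower (-0.92, adjusted p = 0.0246), and the other 5 were not called. The part of these cells in the collagen differences was not tested.

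The main fibrillar collagens differed between the rats in every group, and for Col1a1 the rats spanned 2.70 while the group means spanned 1.66. Col1a1 and Col1a2, the chains of type I collagen, Col3a1, the chain of type III collagen, Col5a1 and Col5a2, the main chains of type V collagen, and Col4a1, a chain of the basement membrane network, were higher in rats 27 and 29 than in rats 15 and 25. The order held in 4 of 4 groups for each of the 6 genes. In EOM fibre Col1a1 stood at 7.61, 6.79, 9.86 and 9.29, and in EOM junction at 7.48, 7.18, 9.83 and 9.29. In TA fibre it stood at 6.34, 5.79, 8.39 and 7.92, and in TA junction at 7.96, 7.59, 10.07 and 9.47. The 2 lower and the 2 higher rats were thus apart in each group, while the group ranges overlapped.

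Col3a1 showed the same split at a brighter level. Its values were 9.64, 10.24, 12.83 and 12.78 in EOM fibre and 11.16, 10.97, 13.19 and 13.14 in EOM junction. They were 9.59, 8.80, 11.11 and 11.38 in TA fibre and 10.997, 10.77, 12.48 and 12.60 in TA junction. Averaged over the groups, the deviations of rats 15, 25, 27 and 29 from the group means were -0.83, -1.34, 1.36 and 0.81 for Col1a1, -0.95, -1.14, 1.04 and 1.06 for Col1a2 and -1.01, -1.16, 1.05 and 1.12 for Col3a1. They were -0.90, -0.81, 0.99 and 0.72 for Col5a1, -0.67, -0.66, 0.65 and 0.68 for Col5a2 and -0.46, -0.73, 0.57 and 0.62 for Col4a1. Rats 27 and 29 lay above and rats 15 and 25 below the group mean for all 6 genes.

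**Figure D1:**
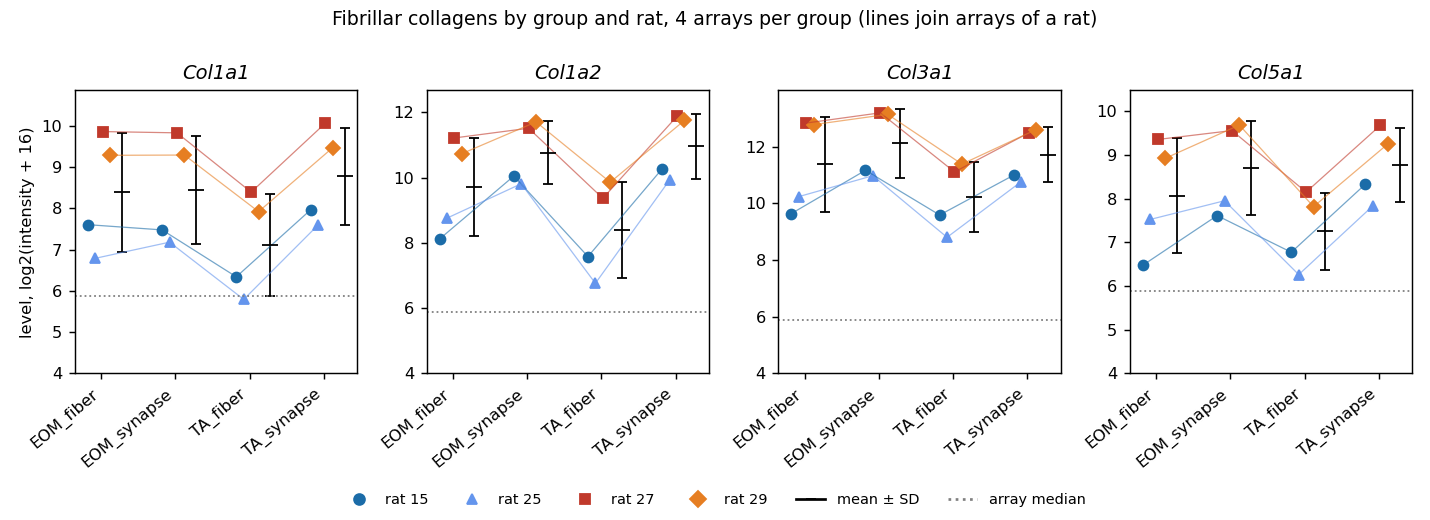
Level, log2(intensity + 16), of 4 fibrillar collagens in the 4 groups (EOM_fiber and TA_fiber are fibre, EOM_synapse and TA_synapse junction), with 1 symbol per rat, lines joining the arrays of a rat, bars for mean ± SD (n = 4) and the dotted line at the array median of 5.88. In each panel rats 27 and 29 lie above rats 15 and 25 in all 4 groups.

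An F test over the rat terms of the fit, added after these values were seen, called 18 of the 10416 genes tested (0.173%), and 6 of the 18 were these collagens. The adjusted p was 2.68e-06 for Col1a1, 0.000511 for Col3a1, 0.00105 for Col1a2, 0.00569 for Col5a1, 0.00824 for Col4a1 and 0.0315 for Col5a2. At an unadjusted p under 0.05 the test picked 15 of the 34 collagens against 13.4% of all genes. The other 12 called genes, named after their values were seen, were Xist, Eif2s3y, Ephx2, Hook1, Igf1, Tfrc, Errfi1, Axl, Nr1d1, Ccdc80, C1r and Slc47a1. Of these, Axl, Ccdc80, Errfi1, Igf1 and Tfrc also had rats 27 and 29 above and rats 15 and 25 below the group means. Hook1 and Nr1d1 had the reverse, and the rest had neither order. The count of collagens was 1 without rat 25, 3 without rat 27 and 3 without rat 29, and 6 without rat 15. It was 4 without the 3 arrays of highest median.

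Other probe sets of these genes deviated in the same directions. The second probe set of Col1a2 deviated by -0.72, -1.20, 0.92 and 0.99 in rats 15, 25, 27 and 29, and that of Col5a2 by -0.32, -0.79, 0.54 and 0.57. The second probe set of Col1a1, which lay near the array median, deviated by -0.85, -0.26, 0.58 and 0.54. Among the markers, 0 of 9 fibroblast genes were called over the rats by the limma F test, and 4 of 9 had an unadjusted p under 0.05. The median deviations over the 9 genes were -0.29, -0.19, 0.17 and 0.40 in rats 15, 25, 27 and 29. Of the 12 basement membrane partners 0 were called and 8 had an unadjusted p under 0.05, with median deviations of -0.30, -0.41, 0.31 and 0.41. Of 9 genes of collagen processing and cross-linking 0 were called and 5 had an unadjusted p under 0.05. Their median deviations were -0.57, -0.26, 0.20 and 0.53. Those of the 7 muscle fibre markers lay the other way, at 0.11, 0.04, -0.01 and -0.13, with 0 called. The arrays of rat 25 alone were high in Xist (10.2 to 11.8 in the 4 groups, 4.11 to 5.69 in the other rats) and low in the Y-linked Eif2s3y (4.08 to 5.38, against 8.36 to 9.50). Rat 15 had levels of Xist and Eif2s3y like those of rats 27 and 29. Rats 15 and 25 deviated by -0.83 and -1.34 for Col1a1 and by -1.01 and -1.16 for Col3a1. A link of the collagen levels with Xist or Eif2s3y was not tested. Whether the animals or handling shared by arrays of 1 number differed cannot be told apart.

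**Figure D2:**
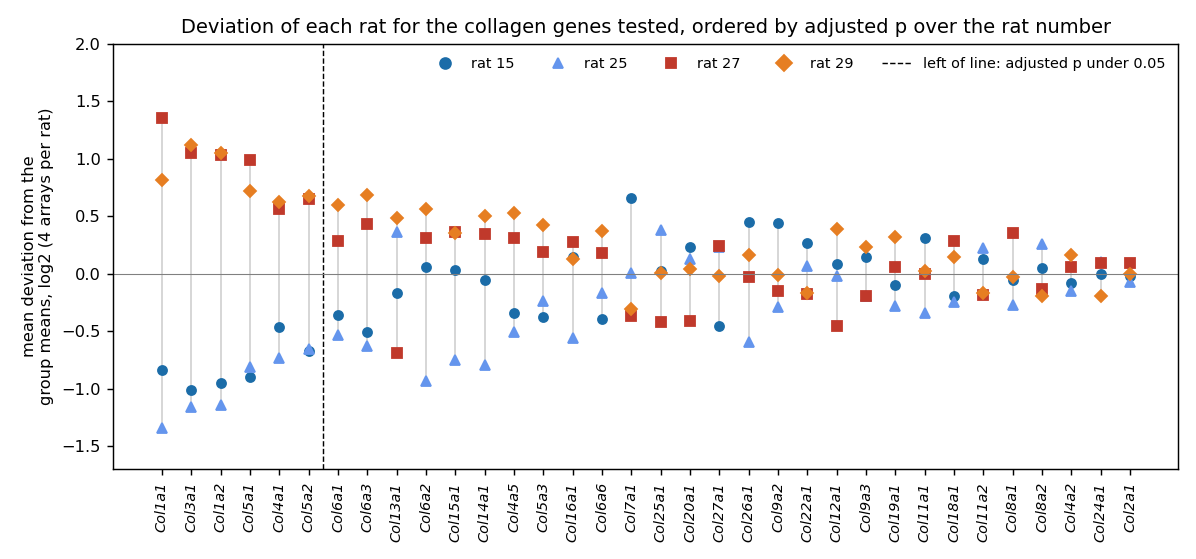
Mean deviation of each rat from the 4 group means (log2, 4 arrays per rat) for the 34 collagen genes tested, ordered by the adjusted p of the F test over the rat number, with the 6 called genes left of the dashed line. For those 6 genes rats 27 and 29 lie above 0 and rats 15 and 25 below it; Col1a1 spans the widest range, 2.70.

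The comparison of junction with fibre asks which transcripts gather where the motor axon meets the muscle. In EOM, 10 of the 34 collagens tested were higher at the junction and 0 were lower, with a median difference of 0.63 against -0.04 over all genes. Of all genes tested, 10.1% were called and 5.62% were higher. In TA, 19 of 34 were higher at the junction and 0 were lower, with a median of 1.10 against -0.01 over all genes. There 10.2% of all genes were called and 6.68% were higher. With no filter, 10 of the 41 collagens were called in EOM (5.79% of all genes) and 17 of 41 in TA (6.25%). Of the calls, 9 genes were shared, which is 9 of the 10 in EOM and 9 of the 19 in TA. They were Col1a2, Col5a2, Col5a3, Col6a3, Col8a2, Col9a3, Col13a1, Col15a1 and Col19a1. The share of all genes called at both junctions was not counted, so this overlap has no background beside it.

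Without the rat as a block, 6 collagens were called in EOM and 11 in TA. The calls lost were Col1a2, Col5a2, Col6a3 and Col15a1 in EOM (adjusted p 0.111 to 0.444) and Col1a1, Col3a1, Col4a1, Col5a1, Col5a2, Col13a1, Col14a1 and Col20a1 in TA (0.0674 to 0.459). Without the 3 arrays of highest median, 11 were called in EOM and 15 in TA. That setting lost Col1a2 and Col8a2 in EOM (0.0514 to 0.0901) and Col4a1, Col9a2, Col9a3, Col13a1 and Col14a1 in TA (0.0536 to 0.226). Of the fibroblast markers 3 of 9 were higher and 1 lower at the EOM junction and 4 of 9 were higher at the TA junction, and of the Schwann cell markers 5 of 7 were higher at each.

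**Figure D3:**
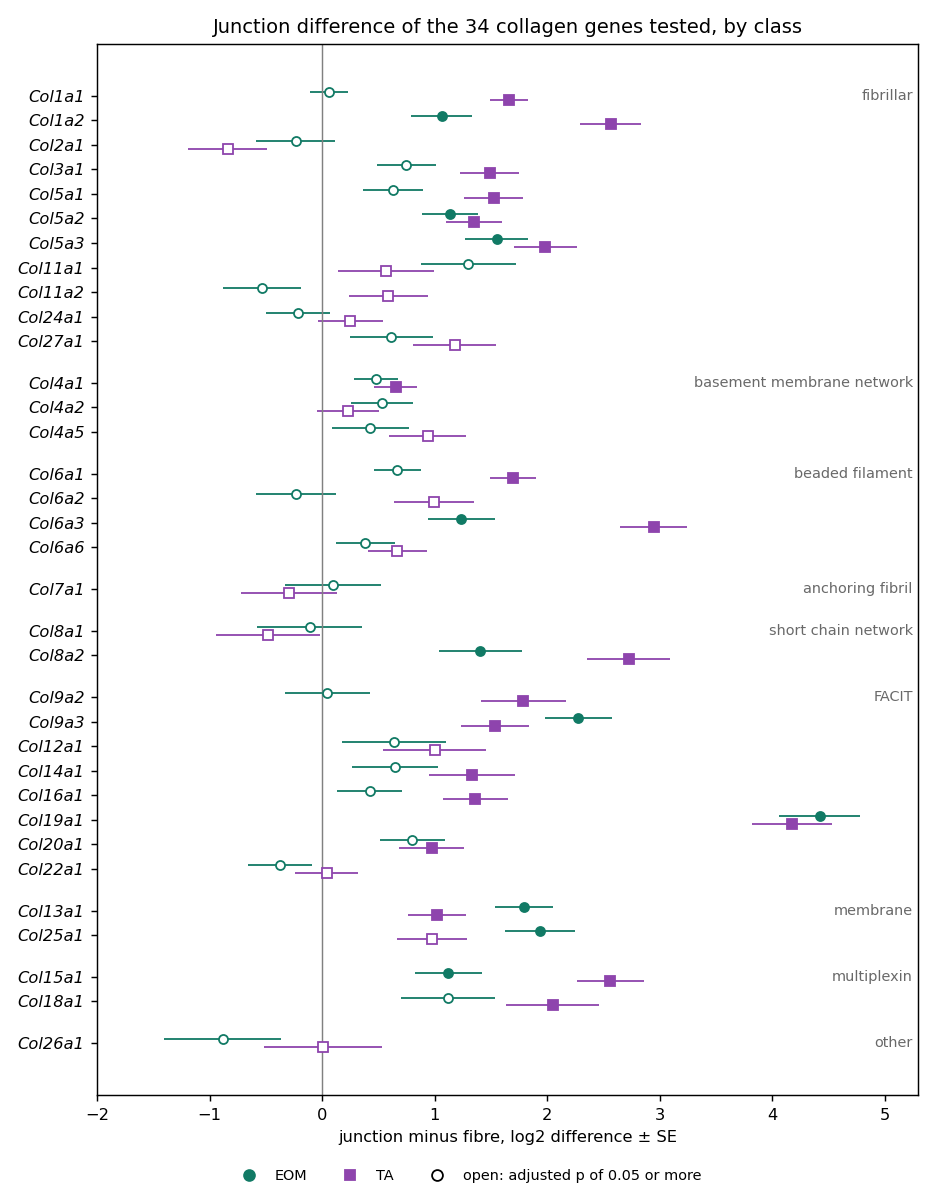
Junction minus fibre difference ± SE (log2, limma) of the 34 collagen genes tested in EOM (circles) and TA (squares), grouped by collagen class; filled symbols have an adjusted p under 0.05. Col19a1 lies farthest to the right in both muscles (4.42 in EOM and 4.18 in TA), and every filled symbol lies right of 0.

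Col19a1, a FACIT collagen made by developing muscle and by neurons, had the largest junction difference of the collagens in both muscles. In EOM its level was 4.22, 4.36, 5.35 and 5.98 in fibre and 9.35, 8.86, 9.74 and 9.64 at the junction. In TA it was 5.62, 4.62, 4.37 and 5.004 in fibre and 8.79, 9.39, 9.14 and 9.01 at the junction. Of the 8 fibre arrays 1 lay above the array median, junction levels lay far above it, and the groups did not overlap. The junction difference was 4.42 (SE 0.36, adjusted p = 4.59e-06, higher in 4 of 4 rats) in EOM and 4.18 (SE 0.36, adjusted p = 3.86e-06, higher in 4 of 4 rats) in TA. Between the muscles the junction levels differed by 0.31 (SE 0.36, adjusted p = 0.604), a difference that was not called.

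Col13a1 and Col25a1 encode membrane collagens made by the muscle fibre. Collagen XIII is needed for the maturation of the junction, and its human gene is a congenital myasthenic syndrome gene. Collagen XXV is needed for motor axons to enter their muscles, and its human gene is a cause of congenital disorders of eye muscle innervation. Col13a1 measured 4.62, 5.94, 4.16 and 5.97 in EOM fibre and 7.28, 6.88, 6.57 and 7.11 at the EOM junction. It measured 4.94, 5.60, 4.33 and 5.46 in TA fibre and 5.81, 6.36, 5.53 and 6.71 at the TA junction. The EOM groups were apart, and the TA groups overlapped slightly. The junction difference was 1.79 (SE 0.26, adjusted p = 0.000691, higher in 4 of 4 rats) in EOM and 1.02 (SE 0.26, adjusted p = 0.0222, higher in 4 of 4 rats) in TA. In TA it missed the threshold when any 1 of TA fibre 15, 27 or 29 or TA junction 27 or 29 was left out (adjusted p 0.0533 to 0.0685).

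Col25a1 measured 5.66, 6.91, 6.83 and 6.69 in EOM fibre and 8.65, 8.71, 8.11 and 8.35 at the EOM junction. In TA it measured 6.67, 6.67, 5.34 and 6.08 in fibre and 7.46, 7.58, 6.38 and 7.24 at the junction. All 4 EOM junction arrays lay above the other 12 arrays. The junction difference was 1.93 (SE 0.31, adjusted p = 0.0014, higher in 4 of 4 rats) in EOM. In TA it was 0.97 (SE 0.31, adjusted p = 0.0654, higher in 4 of 4 rats), which was not called, but it passed without the 3 arrays of highest median (1.20, adjusted p = 0.0133). The EOM effect minus the TA effect was 0.96 (SE 0.44, adjusted p = 0.455) for Col25a1 and 0.77 (SE 0.37, adjusted p = 0.476) for Col13a1, so neither was called as differing between the muscles. At the junction itself EOM was higher than TA for Col25a1 by 1.29 (SE 0.31, adjusted p = 0.0119, higher in 4 of 4 rats) and for Col13a1 by 0.86 (SE 0.26, adjusted p = 0.0374, higher in 4 of 4 rats). The latter was not called without any 1 of EOM junction 15 or 27 or TA junction 15, 25, 27 or 29 (adjusted p 0.0629 to 0.134) or without the rat block (adjusted p = 0.172).

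**Figure D4:**
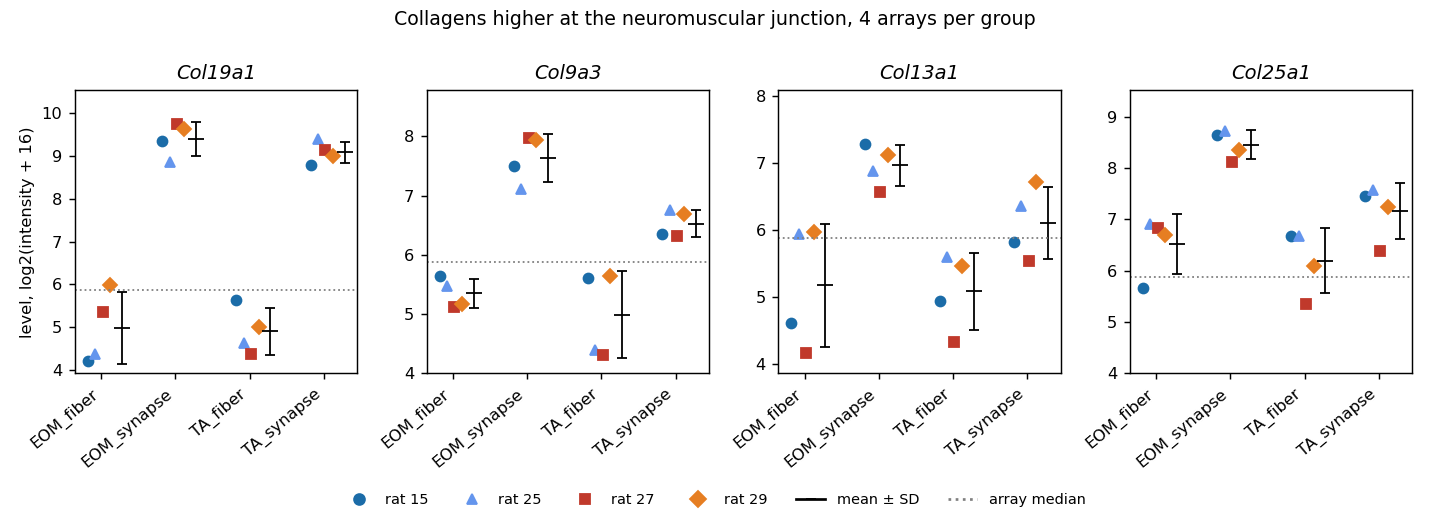
Level, log2(intensity + 16), of 4 collagens in the 4 groups (EOM_synapse and TA_synapse are the junction), with 1 symbol per rat, bars for mean ± SD (n = 4) and the dotted line at the array median of 5.88. In each muscle the junction mean lies above the fibre mean, without overlap of arrays for Col19a1 and Col9a3, and for Col25a1 and Col13a1 the EOM junction has the highest mean.

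The sequences in front of the starts of Col19a1 and Col13a1 are shown because both genes rose at the junctions of both muscles, where elements such as the N-box (CCGGAA) and the E-box (CANNTG) are known to act in front of acetylcholine receptor genes. They are the 250 bases before the RefSeq start in the GRCr8 assembly, on the gene's own (minus) strand, with matches to the N-box, the E-box or the CCAAT box (CCAAT) in capitals. The Col19a1 window is chr9:34518258-34518507 and the Col13a1 window chr20:30466801-30467050. Both strands were searched, and no 2 of the 3 motifs overlapped in any collagen window.
Col19a1: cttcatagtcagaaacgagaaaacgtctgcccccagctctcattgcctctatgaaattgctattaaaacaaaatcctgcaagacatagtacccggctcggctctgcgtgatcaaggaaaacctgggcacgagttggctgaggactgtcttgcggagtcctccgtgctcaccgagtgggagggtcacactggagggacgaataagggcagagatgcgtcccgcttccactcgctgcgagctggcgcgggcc
Col13a1: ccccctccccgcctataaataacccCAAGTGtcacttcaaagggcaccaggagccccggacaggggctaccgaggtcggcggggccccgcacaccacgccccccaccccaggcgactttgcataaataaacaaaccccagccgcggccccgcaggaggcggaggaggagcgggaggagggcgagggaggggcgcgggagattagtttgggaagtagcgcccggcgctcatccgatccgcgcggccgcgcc
The Col19a1 window held none of the 3 motifs. The Col13a1 window held a single E-box, CAAGTG, 225 bases before the start. Of the 41 collagens, 32 had such a window. The N-box letters occurred in 1 of the 32 (Col23a1), against 14.1% of 27457 genes with a window. The E-box letters occurred in 16 of 32, against 67.0%, and CCAAT in 9 of 32, against 36.1%. A match is a run of letters and not a site shown to be bound.

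Col9a3 and Col9a2 are chains of collagen IX, a FACIT known from cartilage. Col9a3 stood at 5.65, 5.47, 5.12 and 5.18 in EOM fibre and 7.50, 7.11, 7.98 and 7.94 at the EOM junction. TA fibre had Col9a3 at 5.61, 4.40, 4.32 and 5.64, and the TA junction at 6.35, 6.76, 6.33 and 6.68. All 8 fibre arrays lay below the array median and all 8 junction arrays above it. The junction difference was 2.28 (SE 0.30, adjusted p = 0.000298, higher in 4 of 4 rats) in EOM and 1.54 (SE 0.30, adjusted p = 0.00458, higher in 4 of 4 rats) in TA. The EOM junction was above the TA junction by 1.10 (SE 0.30, adjusted p = 0.022, higher in 4 of 4 rats). That muscle difference was not called without any 1 of EOM junction 27 or 29 or TA junction 15, 27 or 29 (adjusted p 0.0538 to 0.0898).

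Col9a2 did not follow Col9a3 in EOM. It measured 6.92, 6.29, 6.74 and 5.66 in EOM fibre and 6.60, 6.45, 6.09 and 6.65 at the EOM junction, a difference of 0.05 (SE 0.38, adjusted p = 0.956). The TA values of Col9a2 were 6.76, 5.09, 4.56 and 5.97 in fibre and 7.32, 6.85, 7.85 and 7.51 at the junction, a difference of 1.79 (SE 0.38, adjusted p = 0.0079, higher in 4 of 4 rats). The TA groups did not overlap. The difference between these effects was -1.74 (SE 0.54, adjusted p = 0.184), which was not called. The third chain, Col9a1, was below the filter, with 15 of 16 arrays under the median of all probe sets.

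Col14a1 and Col16a1, FACITs associated with fibrils and other matrix networks, were called at the TA junction. Col14a1 measured 6.52, 4.20, 6.63 and 7.22 in TA fibre and 7.04, 7.000, 8.09 and 7.76 at the TA junction, a difference of 1.33 (SE 0.38, adjusted p = 0.0396, higher in 4 of 4 rats). In EOM it measured 6.92, 6.96, 7.65 and 7.11 in fibre and 7.89, 7.24, 7.61 and 8.495 at the junction, a difference of 0.65 (SE 0.38, adjusted p = 0.316). The array TA fibre 25 was far below the other TA fibre arrays. The TA call was lost without any 1 of TA fibre 25 or 27 or TA junction 15, 25, 27 or 29 (adjusted p 0.0512 to 0.126).

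Col16a1 measured 6.34, 4.47, 6.49 and 6.46 in TA fibre and 7.47, 6.85, 7.57 and 7.32 at the TA junction. In EOM it measured 7.38, 7.02, 7.19 and 7.09 in fibre and 7.41, 7.42, 7.88 and 7.66 at the junction. The junction difference was 1.36 (SE 0.29, adjusted p = 0.00803, higher in 4 of 4 rats) in TA and 0.42 (SE 0.29, adjusted p = 0.396) in EOM. TA fibre 25 was again low, and the TA groups did not overlap. Col20a1, another FACIT, averaged 4.58 ± 0.20 in TA fibre and 5.56 ± 0.87 (SD, n = 4) at the TA junction. Its difference of 0.97 (SE 0.29, adjusted p = 0.0487, higher in 3 of 4 rats) was the smallest FACIT call. It was lost without any 1 of TA fibre 15, 25, 27 or 29 or TA junction 15, 25 or 29 (adjusted p 0.0779 to 0.169).

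Col22a1, known from the junction of muscle with tendon, was not called in any comparison. Its levels were 6.80, 6.33, 6.21 and 6.03 in EOM fibre and 6.22, 5.77, 6.16 and 5.71 at the EOM junction. They were 6.75, 6.99, 5.69 and 5.77 in TA fibre and 6.26, 6.15, 6.18 and 6.77 at the TA junction. All 4 groups overlapped near the array median. Of 5 tendon markers tested, Thbs4 was higher in EOM fibre than in TA fibre (1.78, adjusted p = 0.0151) and rose at the TA junction (3.001, adjusted p = 0.000563). Scx, a transcription factor of tendon cells, was lower at the EOM junction than in EOM fibre (-1.05, adjusted p = 0.034) and than at the TA junction (-1.42, adjusted p = 0.00398). Comp, Tnmd and Fmod, the other tendon markers tested, were not called in any comparison. At the TA junction Comp (-0.61), Tnmd (-0.44), Scx (-0.20) and Fmod (-0.16) lay in the direction opposite to Thbs4, none called. Of all genes, 8.4% were called higher in EOM fibre than in TA fibre and 6.68% at the TA junction. Col12a1, a FACIT of tendon, differed by 0.64 (SE 0.46, adjusted p = 0.426) at the EOM and 1.001 (SE 0.46, adjusted p = 0.208) at the TA junction, neither called.

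Of the 11 fibrillar collagens, 3 were higher at the EOM junction (5.62% of all genes) and 6 at the TA junction (6.68%). Col1a2 stood at 8.12, 8.76, 11.21 and 10.73 in EOM fibre and 10.05, 9.81, 11.51 and 11.70 at the EOM junction. The Col1a2 levels in TA were 7.58, 6.76, 9.37 and 9.86 in fibre and 10.27, 9.93, 11.88 and 11.75 at the junction. The TA groups were apart in spite of the spread between rats, and the EOM groups overlapped. The difference was 1.06 (SE 0.27, adjusted p = 0.0248, higher in 4 of 4 rats) in EOM and 2.56 (SE 0.27, adjusted p = 3.44e-05, higher in 4 of 4 rats) in TA. Its second probe set had group means of 9.38, 10.23, 7.97 and 9.97 in EOM fibre, EOM junction, TA fibre and TA junction. The EOM call was lost without any 1 of EOM fibre 15 or 29 or EOM junction 15, 25 or 29 (adjusted p 0.0553 to 0.0915).

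Col1a1 was the collagen whose junction effect differed between the muscles. Within each rat the TA junction exceeded the TA fibre by 1.62, 1.80, 1.67 and 1.55, and the EOM junction exceeded the EOM fibre by -0.13, 0.39, -0.03 and 0.01. The difference was 1.66 (SE 0.17, adjusted p = 1.95e-05, higher in 4 of 4 rats) in TA and 0.06 (SE 0.17, adjusted p = 0.867) in EOM. The interaction, the EOM effect minus the TA effect, was -1.60 (SE 0.24, adjusted p = 0.00528, lower in 4 of 4 rats). It was the single collagen among the 34 called for the interaction, against 0.922% of all genes. Without the rat block the adjusted p was 0.736, and with the mean of both Col1a1 probe sets the interaction was -0.81 (adjusted p = 0.394). The second probe set of Col1a1 lay near the array median, with group means of 5.95, 5.87, 6.16 and 6.10 in EOM fibre, EOM junction, TA fibre and TA junction. It did not show the group differences of the first.

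The interactions of Col1a2, -1.502 (SE 0.39, adjusted p = 0.0964), and Col6a3, -1.71 (SE 0.42, adjusted p = 0.0852), lay in the same direction but were not called. Of the 34 collagens, 9 had a positive interaction, and the median was -0.49 against -0.02 over all genes. Without the 3 arrays of highest median Col6a3 was called as well (-1.91, adjusted p = 0.0282). Leaving out EOM fibre 15 raised the count of called interactions from 1 to 3.

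Col3a1 had a junction difference of 1.49 (SE 0.26, adjusted p = 0.00228, higher in 4 of 4 rats) in TA and 0.75 (SE 0.26, adjusted p = 0.0909, higher in 4 of 4 rats) in EOM, where it was not called. Col5a1 stood at 6.48, 7.53, 9.36 and 8.93 in EOM fibre and 7.62, 7.96, 9.56 and 9.69 at the EOM junction. In TA it stood at 6.78, 6.26, 8.15 and 7.82 in fibre and 8.34, 7.84, 9.68 and 9.25 at the junction. Its difference was 1.52 (SE 0.26, adjusted p = 0.00202, higher in 4 of 4 rats) in TA and 0.63 (SE 0.26, adjusted p = 0.154) in EOM. Rat by rat the TA difference of Col5a1 was 1.56, 1.58, 1.53 and 1.43, a narrow range beside the spread of its levels.

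Col5a2 stood at 7.60, 8.63, 9.73 and 9.65 in EOM fibre and 9.86, 9.28, 10.53 and 10.48 at the EOM junction. TA fibre had Col5a2 at 8.11, 8.17, 9.27 and 9.45, and the TA junction at 9.54, 9.08, 10.87 and 10.92. The difference was 1.14 (SE 0.25, adjusted p = 0.0111, higher in 4 of 4 rats) in EOM and 1.35 (SE 0.25, adjusted p = 0.00331, higher in 4 of 4 rats) in TA. Col5a3, the rarer chain of type V collagen, known from connective tissue sheaths, was nearer the array median in fibres. It measured 5.45, 5.52, 5.94 and 6.81 in EOM fibre and 7.01, 6.79, 7.96 and 8.17 at the EOM junction. The TA values of Col5a3 were 5.39, 6.16, 5.59 and 5.76 in fibre and 7.49, 7.42, 8.10 and 7.80 at the junction. The TA groups were apart and the EOM groups overlapped slightly. Its difference was 1.55 (SE 0.28, adjusted p = 0.00337, higher in 4 of 4 rats) in EOM and 1.98 (SE 0.28, adjusted p = 0.000409, higher in 4 of 4 rats) in TA.

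The other fibrillar collagens, Col2a1, Col11a1, Col11a2, Col24a1 and Col27a1, were not called at either junction. Col2a1 and Col11a1 are cartilage collagens. Col2a1 differed by -0.84 (SE 0.35, adjusted p = 0.16) at the TA junction, and Col11a1 by 1.30 (SE 0.42, adjusted p = 0.0699) at the EOM junction. Col27a1 differed by 1.18 (SE 0.37, adjusted p = 0.0598) in TA. None of these passed the threshold.

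Collagen VI forms beaded filaments next to the basement membrane of muscle fibres, and its chains are muscular dystrophy genes. Col6a3 had the largest called difference of the class. It measured 6.82, 8.17, 8.61 and 8.94 in EOM fibre and 8.88, 8.66, 9.92 and 10.01 at the EOM junction. The Col6a3 levels in TA were 8.02, 7.09, 8.68 and 9.01 in fibre and 11.12, 10.42, 11.39 and 11.65 at the junction. All TA junction arrays lay above all other arrays. The junction difference was 2.95 (SE 0.30, adjusted p = 1.96e-05, higher in 4 of 4 rats) in TA and 1.24 (SE 0.30, adjusted p = 0.0177, higher in 4 of 4 rats) in EOM. The EOM call was lost without EOM junction 15 or 27 (adjusted p 0.0548 to 0.0584). A second Col6a3 probe set was below the filter, with group means of 4.64 to 5.42.

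Col6a1 measured 8.78, 8.72, 9.41 and 9.31 in EOM fibre and 9.30, 8.85, 10.28 and 10.47 at the EOM junction. In TA it measured 7.78, 7.99, 8.51 and 9.09 in fibre and 9.89, 9.48, 10.12 and 10.68 at the junction. Its difference was 1.70 (SE 0.21, adjusted p = 0.000113, higher in 4 of 4 rats) in TA and 0.67 (SE 0.21, adjusted p = 0.0574, higher in 4 of 4 rats) in EOM, the latter not called. Col6a2, the third of the main chains, was dimmer and more scattered. It measured 6.54, 5.93, 6.70 and 5.98 in EOM fibre and 6.18, 4.60, 6.52 and 6.91 at the EOM junction, and 5.68, 4.18, 6.33 and 6.77 in TA fibre and 6.64, 6.37, 6.50 and 7.42 at the TA junction. Its difference was 0.99 (SE 0.36, adjusted p = 0.101) in TA and -0.23 (SE 0.36, adjusted p = 0.736) in EOM. Col6a6 differed by 0.67 (SE 0.26, adjusted p = 0.138) in TA and 0.38 (SE 0.26, adjusted p = 0.401) in EOM. Neither gene was called.

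Type IV collagen, the network of the basement membrane, had junction differences of at most 0.53 in EOM and 0.94 in TA on the brightest probe sets of the 3 genes tested. Larger differences were found on the second Col4a1 probe set in EOM (1.04) and on Col4a6, which was below the filter, in TA (1.11). Col4a1 measured 8.68, 8.22, 9.54 and 9.22 in EOM fibre and 8.59, 8.63, 10.16 and 10.18 at the EOM junction. TA fibre had Col4a1 at 7.65, 7.47, 8.47 and 8.83, and the TA junction at 8.41, 7.93, 9.26 and 9.43. The difference was 0.65 (SE 0.19, adjusted p = 0.0474, higher in 4 of 4 rats) in TA and 0.48 (SE 0.19, adjusted p = 0.141, higher in 3 of 4 rats) in EOM, the latter not called. The TA call was lost without any 1 of the 8 TA arrays (adjusted p 0.07 to 0.158). With the mean of both Col4a1 probe sets the EOM difference was called (0.76, adjusted p = 0.0180).

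Col4a2, the partner chain of Col4a1, was not called in any comparison. It measured 7.85, 7.16, 7.19 and 7.13 in EOM fibre and 7.11, 7.79, 8.29 and 8.28 at the EOM junction. The TA values of Col4a2 were 7.42, 7.37, 7.09 and 7.47 in fibre and 7.41, 7.18, 7.79 and 7.90 at the junction. Its junction difference was 0.53 (SE 0.27, adjusted p = 0.248) in EOM and 0.23 (SE 0.27, adjusted p = 0.681) in TA, and over the rats it was not called (adjusted p = 0.831), while Col4a1 was. The genes of this pair lie head to head and share the stretch between their RefSeq starts, which is shown because the array values of the pair differ. It spans the 76 bases chr16:84885521-84885596 of GRCr8, written along the strand of Col4a1 and opposite to that of Col4a2.
Col4a2-Col4a1: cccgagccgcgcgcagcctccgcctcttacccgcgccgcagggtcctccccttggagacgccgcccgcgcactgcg
None of the 3 motifs occurred between the starts.

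Col4a5, a chain of the basement membrane in kidney, eye and smooth muscle, was brighter in EOM fibre than in TA fibre. It measured 8.08, 9.39, 10.21 and 10.20 in EOM fibre and 10.02, 9.56, 9.86 and 10.15 at the EOM junction. The Col4a5 levels in TA were 8.08, 6.81, 8.37 and 8.63 in fibre and 8.69, 8.47, 9.07 and 9.41 at the junction. Junction differences of 0.43 (SE 0.35, adjusted p = 0.485) in EOM and 0.94 (SE 0.35, adjusted p = 0.11) in TA were not called. Col4a4 and Col4a6 were below the filter, with group means of 4.71 to 5.42 and 4.44 to 5.55. Col4a3 was not among the named genes of the array.

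The multiplexins Col15a1 and Col18a1 link basement membranes to the matrix around them, and collagen XV is known for stabilising muscle fibres and capillaries. Col15a1 measured 8.24, 7.42, 8.502 and 8.32 in EOM fibre and 8.74, 9.06, 9.60 and 9.58 at the EOM junction. In TA it measured 7.80, 5.56, 7.41 and 7.60 in fibre and 9.46, 9.07, 10.04 and 10.04 at the junction. Junction and fibre arrays did not overlap in either muscle. The difference was 1.12 (SE 0.30, adjusted p = 0.0284, higher in 4 of 4 rats) in EOM and 2.56 (SE 0.30, adjusted p = 7.2e-05, higher in 4 of 4 rats) in TA. The EOM call was lost without any 1 of EOM fibre 15, 25, 27 or 29 or EOM junction 25, 27 or 29 (adjusted p 0.0601 to 0.109). The second probe set had group means of 6.61, 8.13, 6.62 and 8.16 in EOM fibre, EOM junction, TA fibre and TA junction.

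Col18a1, the source of endostatin, measured 6.13, 6.54, 6.94 and 5.82 in EOM fibre and 7.23, 6.93, 8.12 and 7.62 at the EOM junction. TA fibre had Col18a1 at 4.78, 4.21, 6.03 and 5.93, and the TA junction at 7.46, 7.68, 6.42 and 7.58. Its difference was 2.05 (SE 0.41, adjusted p = 0.00594, higher in 4 of 4 rats) in TA and 1.12 (SE 0.41, adjusted p = 0.107, higher in 4 of 4 rats) in EOM, the latter not called. Without the 3 arrays of highest median the EOM difference passed (1.19, adjusted p = 0.0276). The second Col18a1 probe set had junction differences of 1.40 in EOM and 1.30 in TA, so it did not show the larger TA difference of the first. Of 9 endothelial markers tested, 1 was higher and 4 lower at the EOM junction, and 1 higher and 2 lower at the TA junction. At the EOM junction 10.1% of all genes were called and 5.62% were higher, and at the TA junction 10.2% and 6.68%.

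Col8a2, a short-chain collagen known from the basement membrane of the corneal endothelium, was among the largest TA differences. It measured 5.70, 6.10, 5.82 and 5.63 in EOM fibre and 7.01, 7.25, 6.94 and 7.69 at the EOM junction. The TA values of Col8a2 were 6.45, 6.33, 5.28 and 4.33 in fibre and 8.005, 8.32, 8.40 and 8.55 at the junction. The groups were apart in both muscles. The difference was 1.41 (SE 0.37, adjusted p = 0.0268, higher in 4 of 4 rats) in EOM and 2.72 (SE 0.37, adjusted p = 0.000276, higher in 4 of 4 rats) in TA. In EOM the call was lost without any 1 of EOM fibre 15, 25, 27 or 29 or EOM junction 15, 27 or 29 (adjusted p 0.0503 to 0.106). Its partner Col8a1 differed by -0.11 (SE 0.46, adjusted p = 0.913) and -0.48 (SE 0.46, adjusted p = 0.594) and was not called.

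The comparison of the muscles asks how EOM, which moves the eye, differs from a limb muscle. It shares its arrays with the junction comparisons, so the values are not independent of those above. In fibre, 9 of the 34 collagens were higher in EOM and 1 was lower, with a median difference of 0.44 against 0.03 over all genes. Of all genes 15.6% were called and 8.4% were higher in EOM. With no filter 9 of 41 were called, against 9.53% of genes. At the junction 5 of 34 were higher in EOM and 1 lower, with a median of 0.08 against 0.01. Of all genes 16.4% were called there and 7.82% were higher, and with no filter 4 of 41 collagens and 9.79% of genes. The share of collagens called at the junction, 6 of 34, was thus near that of all genes.

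Without the rat block 4 collagens were called in fibre, and Col1a1, Col1a2, Col3a1, Col4a1, Col6a1 and Col15a1 were lost (adjusted p 0.114 to 0.378). Without the 3 arrays of highest median 8 were called in fibre and 6 at the junction. Beside these counts stand those of the fibroblast markers, of which 8 of 9 were higher in EOM fibre and 4 of 9 at the EOM junction. Macrophage markers had 4 of 6 higher in EOM fibre and 0 of 6 called at the junction. Their part in the collagen differences was not tested.

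Col24a1, a minor fibrillar collagen known from bone and eye, separated the muscles. Its levels were 9.39, 10.30, 10.44 and 10.08 in EOM fibre and 10.33, 9.73, 9.87 and 9.43 at the EOM junction. They were 6.40, 7.02, 6.55 and 6.87 in TA fibre and 7.42, 6.93, 7.09 and 6.41 at the TA junction. Every EOM array lay above every TA array. EOM exceeded TA by 3.34 (SE 0.29, adjusted p = 9.18e-06, higher in 4 of 4 rats) in fibre, 10.1-fold, and by 2.88 (SE 0.29, adjusted p = 1.93e-05, higher in 4 of 4 rats) at the junction, 7.35-fold. Junction and fibre differed by -0.21 (SE 0.29, adjusted p = 0.694) in EOM and 0.25 (SE 0.29, adjusted p = 0.662) in TA, neither called. Over the rats it was not called either (adjusted p = 0.856). The muscle calls held under each alternative run and without each array or rat.

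**Figure D5:**
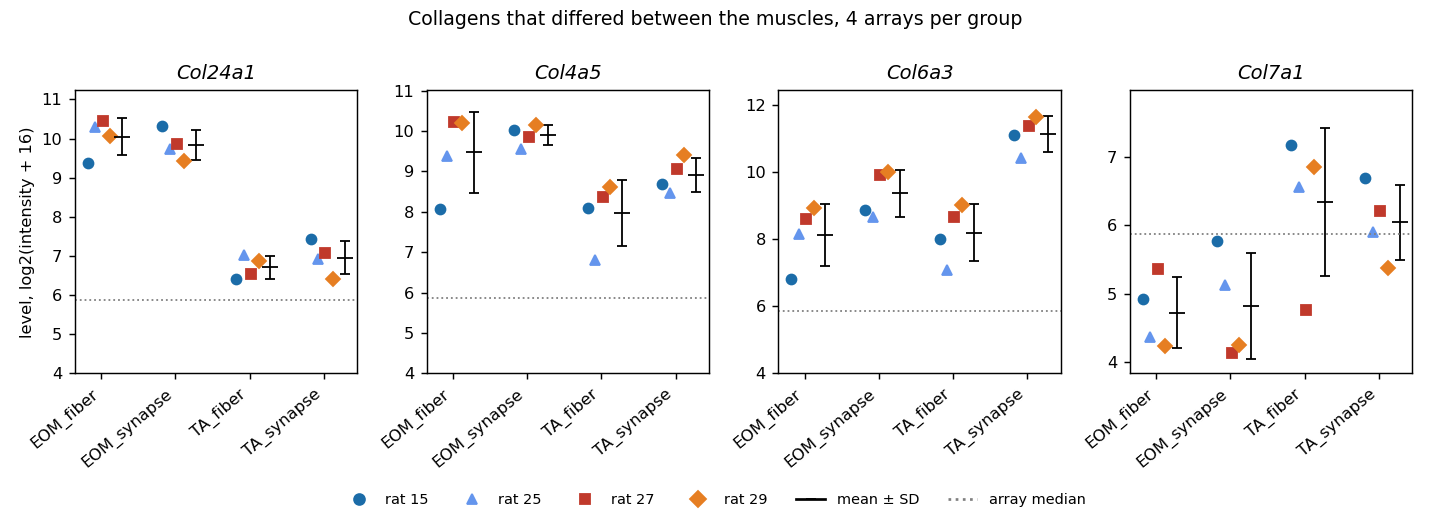
Level, log2(intensity + 16), of 4 collagens that differed between the muscles, in the 4 groups (EOM_synapse and TA_synapse are the junction), with 1 symbol per rat, bars for mean ± SD (n = 4) and the dotted line at the array median of 5.88. All 8 EOM arrays of Col24a1 lie above all 8 TA arrays, Col6a3 is highest at the TA junction, and Col7a1 lies below the median on all 8 EOM arrays.

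In fibre the type I and III chains were higher in EOM, by 1.27 (SE 0.17, adjusted p = 0.000221, higher in 4 of 4 rats) for Col1a1, 1.31 (SE 0.27, adjusted p = 0.00527, higher in 4 of 4 rats) for Col1a2 and 1.15 (SE 0.26, adjusted p = 0.00933, higher in 4 of 4 rats) for Col3a1. At the junction the same genes differed by -0.33 (SE 0.17, adjusted p = 0.206), -0.19 (SE 0.27, adjusted p = 0.695) and 0.41 (SE 0.26, adjusted p = 0.328), none of them called. Col1a1 had overlapping fibre groups, and the within-rat differences were 1.26, 0.996, 1.47 and 1.37. With the mean of both probe sets the fibre difference of Col1a1 was 0.53 (adjusted p = 0.155). Col5a1 differed by 0.82 (SE 0.26, adjusted p = 0.0512) in fibre, just outside the threshold.

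Among basement membrane chains Col4a5 was higher in EOM fibre by 1.497 (SE 0.35, adjusted p = 0.00986, higher in 3 of 4 rats) and Col4a1 by 0.81 (SE 0.19, adjusted p = 0.012, higher in 4 of 4 rats). Col4a2 differed by -0.01 (SE 0.27, adjusted p = 0.989). For Col4a1 the second probe set had fibre means of 7.54 in EOM and 7.51 in TA, and with the mean of both the difference was 0.42 (adjusted p = 0.142). At the junction Col4a1 was higher in EOM by 0.63 (SE 0.19, adjusted p = 0.0393, higher in 4 of 4 rats). That call was lost without any 1 of EOM junction 25, 27 or 29 or TA junction 15, 25, 27 or 29 (adjusted p 0.0622 to 0.128). Col4a5 differed by 0.99 (SE 0.35, adjusted p = 0.0672, higher in 4 of 4 rats) at the junction, with no overlap of the groups, and was not called. It passed without the 3 arrays of highest median (0.99, adjusted p = 0.00550).

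Further fibre calls were Col16a1, higher in EOM by 1.23 (SE 0.29, adjusted p = 0.0111, higher in 4 of 4 rats), Col15a1 by 1.03 (SE 0.30, adjusted p = 0.0319, higher in 4 of 4 rats) and Col6a1 by 0.71 (SE 0.21, adjusted p = 0.033, higher in 4 of 4 rats). Col15a1 was not called without any 1 of EOM fibre 15, 25 or 27 or TA fibre 25, 27 or 29 (adjusted p 0.0515 to 0.098). With the mean of both its probe sets the Col15a1 call was also lost, and the second probe set differed by -0.006 in fibre. Col6a1 was not called without any 1 of EOM fibre 15, 25 or 27 or TA fibre 15 or 27 (adjusted p 0.0716 to 0.11). At the junction these genes differed by 0.29 (SE 0.29, adjusted p = 0.549), -0.41 (SE 0.30, adjusted p = 0.392) and -0.32 (SE 0.21, adjusted p = 0.334), none called. Of the 9 collagens higher in EOM fibre, 7 were also higher at the TA junction. Both comparisons rest on the TA fibre arrays, and low values there raise both differences. The share of all genes called in both was not counted, so nothing is read from this overlap.

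The collagens lower in EOM were Col6a3 and Col7a1. The EOM junction differed from the TA junction by -1.78 (SE 0.30, adjusted p = 0.00113, lower in 4 of 4 rats) for Col6a3, while the fibre groups differed by -0.07 (SE 0.30, adjusted p = 0.911). That call held under each alternative run and without each array or rat. Col7a1, the chain of the anchoring fibrils of skin, measured 4.92, 4.37, 5.36 and 4.24 in EOM fibre and 7.17, 6.57, 4.77 and 6.85 in TA fibre. It measured 5.77, 5.13, 4.14 and 4.25 at the EOM junction and 6.69, 5.90, 6.21 and 5.38 at the TA junction. TA fibre 27 was low, and the other TA fibre arrays lay above the median. The fibre difference was -1.62 (SE 0.43, adjusted p = 0.0202, lower in 3 of 4 rats), and the junction difference between the muscles -1.22 (SE 0.43, adjusted p = 0.0668) was not called. Without any 1 of EOM fibre 15, 25 or 29 or TA fibre 15, 25 or 29 the fibre call was lost (adjusted p 0.0562 to 0.0733).

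Genes that make, cross-link, degrade and bind collagen were counted over fixed lists, to be read against the shares of all genes called higher: 5.62% at the EOM junction, 6.68% at the TA junction, and in EOM over TA 8.4% in fibre and 7.82% at the junction. Of 17 tested genes of collagen synthesis and secretion, 5 were higher at the TA junction, 1 at the EOM junction and 3 in EOM fibre against TA fibre. At the junction 1 was higher in EOM and 1 lower. The counts of 1 of 17 were near the shares of all genes. Fkbp10, a chaperone of collagen in the endoplasmic reticulum, was higher by 2.01 at the TA junction, 1.17 at the EOM junction and 0.92 in EOM fibre. Serpinh1, the collagen chaperone HSP47, was higher in EOM by 1.23 in fibre and 1.10 at the junction.

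Of 9 genes of processing and cross-linking, 3 were higher in EOM fibre, among them the cross-linking enzymes Tgm2 (1.75) and Lox (1.45) and the procollagen proteinase Bmp1 (1.57). 2 were higher in EOM than in TA at the junction, 1 was higher at the junction in TA (Loxl2, 1.48), and 0 differed between EOM junction and EOM fibre. The degradation list held enzymes and also their inhibitors, Timp1 to Timp4. Of 9 tested genes, 5 were higher and 1 lower at the TA junction, and 1 higher and 1 lower at the EOM junction. In EOM fibre 5 were higher than in TA fibre. The inhibitor Timp2 was among the higher genes at the TA junction (1.06) and in EOM fibre (0.79), and Timp3 in EOM fibre (0.99). Mmp2, a gelatinase, was higher by 1.98 at the TA junction, 0.90 at the EOM junction and 1.33 in EOM fibre, and Timp4, an inhibitor of such enzymes, was lower at both junctions, with differences of -0.89 in TA and -1.26 in EOM. At the junction 2 were higher in EOM, the enzyme Ctsb (0.69) and the inhibitor Timp3 (1.54).

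Of 6 tested collagen receptors, 3 were higher at the EOM junction and 2 at the TA junction. Adgrg6, a receptor of Schwann cells that binds type IV collagen, was higher by 1.61 in EOM and 1.30 in TA, and Itgb1, the shared chain of the collagen-binding integrins, by 0.85 and 1.10. Itga1, a chain that pairs with Itgb1, was higher at the EOM junction by 1.06. Ddr2, a receptor of fibrillar collagen, was higher in EOM by 1.87 in fibre and 1.18 at the junction, and the muscle counts were 1 of 6 in fibre and 2 of 6 at the junction.

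Among 12 partners of collagen in the basement membrane, 8 were higher at the EOM junction and 8 at the TA junction, with medians of 1.09 and 1.21. Lama2, the main laminin chain of muscle, was higher by 1.78 in EOM and 3.56 in TA. Its interaction was called (-1.78, limma adjusted p = 0.0407, lower in 4 of 4 rats), against 0.922% of all genes. That of no other partner was called. Lama4, a laminin chain of the synaptic cleft, was higher by 1.76 in EOM and 1.97 in TA. Colq, the collagen-like tail that anchors acetylcholinesterase in the cleft and whose symbol falls outside the rule, was higher by 2.13 and 2.95. In fibre 4 of 12 were higher in EOM, and at the junction 1 of 12, near the share of all genes.

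Among the remaining members, Col26a1 differed by -0.88 (SE 0.52, adjusted p = 0.32) at the EOM junction and 0.01 (SE 0.52, adjusted p = 0.996) at the TA junction. Col11a2 differed by -0.84 (SE 0.35, adjusted p = 0.12) between the EOM and the TA junction, with no overlap of the groups, and was not called. The members below the filter were dim. Group means were 4.45 to 5.45 for Col17a1 and 4.69 to 5.11 for Col23a1, both membrane collagens, 4.20 to 4.63 for Col9a1 and 4.73 to 5.27 for Col10a1, both cartilage collagens, and 4.69 to 5.70 for Col6a5. All of these lay under the array median of 5.88.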

How the data were processed

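The deposited table holds 1 intensity per probe set for 16 Affymetrix rat arrays, 1 for each of 4 rats in each of 4 groups. Per the labels, RNA was amplified in a 2-cycle protocol from 600 ng of amplified RNA at the second step; for the software that the authors used to summarise the intensity values, the name is not given in the sources used. Judged by the deposited values, each array had been scaled to an equal trimmed mean (150.1, without the outer 2% of probe sets). Of 31099 probe sets, 57 controls were left out, 20826 named 1 gene, 436 several and 9780 none.

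Here log2(intensity + 16) was quantile normalized, as array medians spread over 0.56 on the log2 scale. Genes above the array median on at least 4 arrays were kept, with the probe set of highest mean for each gene (10416 genes). Group means and the rat number as a block were fitted in limma 3.58.1 (R 4.3.3; 9 residual degrees of freedom), and p-values of each of 5 contrasts were adjusted over all genes tested (Benjamini-Hochberg). The labels give the same 4 rat numbers in each group and the study used 4 rats. Deviations from the group means correlated by 0.11 on average over the 24 same-number pairs (-0.067 to 0.25, 16 of them over 0.1), against -0.037 for other pairs, and the level of Xist marked the same number in every group. The fits were tested on simulated data. Alternatives covered the block, normalization, filter, pseudocount, probe set choice, and leaving out arrays or rats. The number of arrays limits the precision.

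The collagen genes, the marker and pathway lists and the tests were chosen with earlier results of these data known. Values on each array are given for fixed members and for those called with a difference of at least 1; other members are given by means or differences. From each list at most 4 called genes per comparison are named, and these are not always the ones with the largest called differences. Upstream sequences are from RefSeq (GRCr8); 9 collagens had no window in the table used. Probe and protein sequences were not used here.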

Additional observations from a re-analysis of the deposited data

Results flagged for a closer look

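In 3 of 104 groups of 4 arrays (26 collagen genes over 4 groups), 1 array stood apart from the other 3 by more than Dixon's critical value, where chance gives about 1 in 20. Col16a1 was low on TA fibre 25 (4.47), Col20a1 was low on TA junction 27 (4.26) and Col4a2 was high on EOM fibre 15 (7.85). These 3 arrays are those with the highest median intensity; the part of that in the values was not tested.

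The junction effect of Col1a1 differed between the muscles by a test of the difference itself (interaction -1.60, SE 0.24, limma adjusted p = 0.00528, lower in 4 of 4 rats). The call was lost without the rat block, with a random block, with median centring and with the mean of both probe sets. The second Col1a1 probe set, near the array median, had an interaction of -0.02.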

How the results depend on the processing

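No called difference changed direction under any alternative run. Of 46 calls, 15 were kept under every alternative, 32 without each single array and 22 without each rat. Without the replicate block the collagen counts fell to 4 of 34 for EOM fibre against TA fibre (10 with the block), 6 for EOM junction against fibre (10), 11 for TA junction against fibre (19) and 0 for the interaction (1). With a random replicate block they were 4, 6, 12 and 0. For EOM fibre against TA fibre the count was 2 with the arrays of that comparison alone and 6 with median centring. The interaction count was 0 with median centring, 0 with the mean of probe sets, 4 with a pseudocount of 64 and 2 without the 3 arrays of highest median. Leaving out an array or a rat gave 3 to 10 for EOM fibre against TA fibre, 3 to 5 for EOM junction against TA junction (main 6), 6 to 9 for EOM junction against fibre, 14 to 18 for TA junction against fibre, 0 to 3 for the interaction and 1 to 6 over the rat number. Col6a2, Col11a1 and Col27a1 lay near the array median, where dim signal limits the precision.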
